A study of Mus musculus with 6 samples.

Results

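The mRNAs described here are those of the nuclear-encoded subunits of the mitochondrial respiratory chain and ATP synthase. They were chosen by gene symbol, as symbols that begin with Nduf followed by a, b, c, s or v, with Uqcr, with Cox4 to Cox8 or with Atp5, together with Sdha to Sdhd. The symbols held 88 members among the 18437 mRNAs listed in any library. The rule used no measured value, but it was set with earlier results of these data known. Of these, 85 are subunits, with 37 in complex I, 4 in complex II, 8 in complex III, 19 in complex IV and 17 in complex V. The other 3 are not counted as subunits. Atp5if1 encodes the inhibitor of ATP synthase, Cox5b-ps is a copy of Cox5b, and Ndufb11b is a copy of Ndufb11. Ndufa4 and Ndufa4l2, which carry the name of complex I, were counted with complex IV, where the protein is found.

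Ribosome profiling (Ribo-seq), the sequencing of the mRNA fragments that translating ribosomes protect, was performed on tissues of wild-type (WT) C57BL/6J mice at 4 weeks of age without treatment. Each of 6 tissues (heart, lung, brain, kidney, colon, small intestine) gave 1 library, and nothing in the labels says how many animals stand behind a library. The deposited value of an mRNA is its ribosome density in RPKM, which counts reads in the coding sequence (CDS) relative to CDS length and to all CDS reads of the library. With 1 library per label there was no replicate error, no test and no p-value. "Higher" and "lower" below mean a difference of at least 2-fold on the log2(RPKM + 1) scale from the mean of the other 5 libraries, and intervals at 95% cover counting error only. In tissue, a larger share of a cell type and more ribosomes per cell on these mRNAs cannot be told apart.

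The labels were checked against 3 markers per tissue before any member was described. The markers of heart (Myh6, Tnni3 and Nppa) and lung (Sftpc, Sftpa1 and Ager) peaked under their own labels. The other 4 sets of markers peaked elsewhere. The brain markers (Snap25, Syt1 and Gfap) summed to 3049 RPKM under the small intestine label and to 11.9 RPKM under the brain label. The kidney markers summed to 18523 RPKM in the library labelled colon, the colon markers to 3288 RPKM in that labelled kidney, and the small intestine markers to 33865 RPKM in that labelled brain. Libraries are therefore named by label throughout ("in heart" stands for the library labelled heart), and a direction between them holds for the labels only. The library labelled brain also held 660.1 RPKM of the colon markers and 505 RPKM of the kidney markers. The reads on CDSs ranged from 4504853 to 10635031 per library, and the number of mRNAs with reads was lowest in the libraries labelled brain (11520) and lung (11594), against 15028 in that labelled small intestine.

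The respiratory chain moves electrons from NADH, by complex I, and from succinate, by complex II, to ubiquinone, then through complex III and cytochrome c to complex IV, which reduces oxygen. Complexes I, III and IV pump protons, and complex V, the ATP synthase, lets them back to make ATP. Some core subunits of complexes I, III, IV and V are encoded in mitochondrial DNA, and all other subunits in the nucleus. Several subunits of complex IV come from paired genes, of which one is used in most cells and the other in heart and skeletal muscle, lung or testis. Heart muscle is known for a dense content of mitochondria.

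The coding sequences of the isoforms on which the results below turn are printed first, since the reads of paralogs can be told apart only where their bases differ. All were read from the mouse genome build GRCm39 with GENCODE release M39, as spliced coding exons from start to stop codon, 5′ to 3′ in the direction of the gene. In the pairs, capitals mark bases that differ from the partner in a pairwise alignment, or that lie opposite a gap in it. In Atp5mc1, Atp5mc2 and Atp5mc3 they mark positions at which the 3 genes are not all the same. Cox8a and Cox8b encode alternative versions of subunit 8 of complex IV, from chr19:7192515-7194997 and chr7:140477069-140480359, both on the minus strand. Their CDSs of 210 and 213 bases with the stop codon shared 53.4% of aligned bases and 40.8% of residues.
Cox8a: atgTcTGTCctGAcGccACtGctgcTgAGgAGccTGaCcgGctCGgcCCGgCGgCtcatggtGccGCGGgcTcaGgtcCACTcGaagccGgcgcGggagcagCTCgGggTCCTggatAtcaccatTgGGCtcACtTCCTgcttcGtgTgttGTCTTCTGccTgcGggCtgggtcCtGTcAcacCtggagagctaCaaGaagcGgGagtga
Cox8b: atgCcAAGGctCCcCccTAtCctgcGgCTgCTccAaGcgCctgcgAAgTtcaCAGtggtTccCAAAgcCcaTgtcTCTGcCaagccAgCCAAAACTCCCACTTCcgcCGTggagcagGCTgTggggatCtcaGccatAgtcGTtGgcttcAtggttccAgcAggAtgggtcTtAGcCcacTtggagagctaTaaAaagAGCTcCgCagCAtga
Cox7a1, the muscle version of subunit 7a, lies at chr7:29883569-29885503 on the plus strand, and Cox7a2, the widely used version, at chr9:79653049-79667162 on the minus strand. They shared 60.6% of bases and 53.8% of residues.
Cox7a1: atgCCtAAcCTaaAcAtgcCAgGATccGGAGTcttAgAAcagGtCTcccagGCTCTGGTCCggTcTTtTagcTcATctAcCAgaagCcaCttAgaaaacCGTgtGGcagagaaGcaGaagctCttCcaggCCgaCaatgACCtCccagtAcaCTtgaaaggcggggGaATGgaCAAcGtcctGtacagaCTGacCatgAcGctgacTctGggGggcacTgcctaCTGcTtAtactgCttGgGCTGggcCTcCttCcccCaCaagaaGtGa
Cox7a2: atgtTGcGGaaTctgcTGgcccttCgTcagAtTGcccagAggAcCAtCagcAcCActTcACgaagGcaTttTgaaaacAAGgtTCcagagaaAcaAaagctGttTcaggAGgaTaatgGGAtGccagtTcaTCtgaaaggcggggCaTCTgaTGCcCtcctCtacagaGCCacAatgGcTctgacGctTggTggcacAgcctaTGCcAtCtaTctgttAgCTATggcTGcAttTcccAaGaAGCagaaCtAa
Cox6a1, the widely used version of subunit 6a, lies at chr5:115483701-115487050, and Cox6a2, its heart and muscle version, at chr7:127804607-127805559, both on the minus strand. They shared 52.2% of residues, and the last 150 bases of each CDS are shown.
Cox6a1: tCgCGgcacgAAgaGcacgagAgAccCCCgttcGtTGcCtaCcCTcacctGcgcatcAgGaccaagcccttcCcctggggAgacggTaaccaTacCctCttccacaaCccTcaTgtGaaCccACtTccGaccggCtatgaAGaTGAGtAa
Cox6a2: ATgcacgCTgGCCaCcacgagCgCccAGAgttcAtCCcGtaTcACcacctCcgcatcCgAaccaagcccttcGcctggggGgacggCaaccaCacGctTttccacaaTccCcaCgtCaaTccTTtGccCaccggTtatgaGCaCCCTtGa
Atp5mc1, Atp5mc2 and Atp5mc3 are a contrasting case, since they make the same mature protein, subunit c of the ATP synthase rotor, from genes on chromosomes 11, 15 and 2. Their last 78 residues are identical, so the 237 bases that encode them with the stop codon differ only in synonymous letters and in the stop codon. Of 64 positions at which the 3 genes differ, 55 are the last position of a codon and 1 is in the stop codon. The rest are other positions of synonymous codons.
Atp5mc1: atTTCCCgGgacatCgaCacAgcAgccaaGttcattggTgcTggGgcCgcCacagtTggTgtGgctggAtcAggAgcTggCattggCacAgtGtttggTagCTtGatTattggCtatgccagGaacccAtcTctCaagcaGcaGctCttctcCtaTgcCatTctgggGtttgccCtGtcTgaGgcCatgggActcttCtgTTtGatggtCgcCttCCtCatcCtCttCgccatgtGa
Atp5mc2: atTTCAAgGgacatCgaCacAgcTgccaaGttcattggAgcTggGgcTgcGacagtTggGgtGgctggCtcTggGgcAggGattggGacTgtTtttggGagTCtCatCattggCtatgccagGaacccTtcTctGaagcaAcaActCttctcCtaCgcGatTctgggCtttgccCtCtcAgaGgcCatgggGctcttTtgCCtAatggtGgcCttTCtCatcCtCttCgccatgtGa
Atp5mc3: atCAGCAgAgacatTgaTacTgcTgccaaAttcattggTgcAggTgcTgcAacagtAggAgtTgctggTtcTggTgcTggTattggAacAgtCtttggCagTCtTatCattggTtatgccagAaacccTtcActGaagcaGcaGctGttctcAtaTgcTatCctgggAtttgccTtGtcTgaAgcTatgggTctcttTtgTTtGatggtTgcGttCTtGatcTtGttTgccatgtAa
These sequences bear on how far the densities of paralogs can be separated. Every window of 29 nt, about the length of a ribosome footprint, was unique among the listed mRNAs for 84 of the 88 members, all 9 printed genes included. Elsewhere in the genome, windows recurred for 34.7% of the CDS of Cox6a1, 28.6% of Cox8a and 27.2% of Cox7a2, and for none of Cox6a2, Cox8b and Cox7a1. The lowest share unique among the listed mRNAs was in Cox5b and Cox5b-ps, where 24.03% of the windows of Cox5b were unique, so the density of Cox5b is uncertain. Members were short, with a median CDS of 397.5 nt against 1320 nt for all listed mRNAs, and 77.3% of them were under 600 nt against 12.6% of all.

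Members took the largest share of reads in the library labelled heart. They held 5.70% of all CDS reads there (interval 5.69 to 5.72), 2.83% in that labelled colon, 1.43% in brain, 0.971% in lung, 0.903% in kidney and 0.826% in small intestine. The summed RPKM gave another order below the first 2 places, at 103097 in heart, 54454 in colon, 25847 in brain, 21915 in kidney, 19419 in lung and 18347 in small intestine. The ratio of the sum in heart to that in another library was 1.89 for colon, 3.99 for brain, 4.70 for kidney, 5.31 for lung and 5.62 for small intestine. A few very dense mRNAs carry these sums, and the ratios of medians over the 84 members with a mean of at least 1 RPKM were 3.08, 6.97, 5.59, 6.15 and 7.03 in the same order. By reads, ATP synthase mRNAs held the largest part in every library, with 2.43% of all reads in heart and 0.264% in kidney. By summed RPKM, which corrects for CDS length, they were first only in heart, at 30787 against 28474 for complex IV. Complex IV led in colon (20490 against 13038 for complex V), kidney (7083 against 4853), lung (6080 against 3880) and small intestine (6551 against 4257). Complex III led in brain (6989 against 6829).

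**Figure D1:**
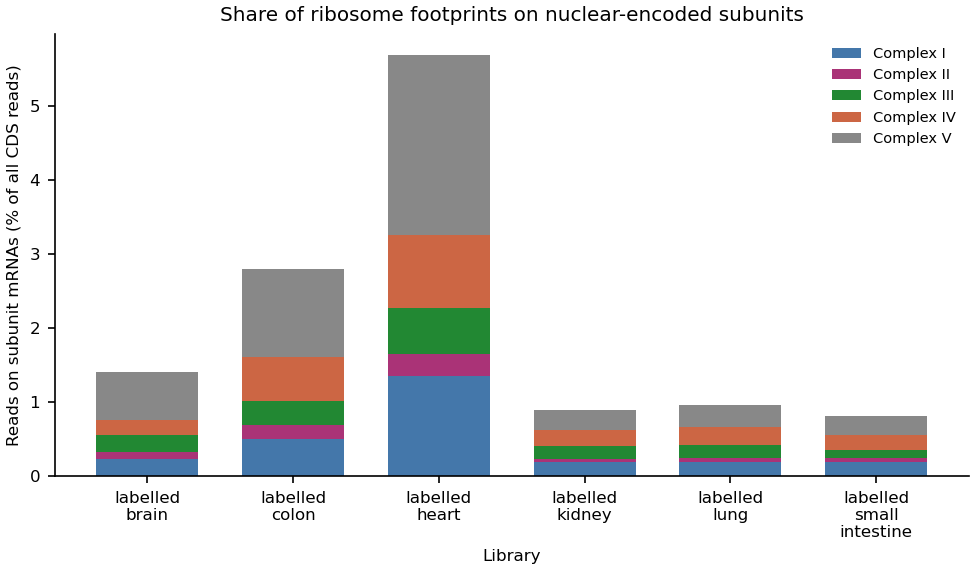
Percent of all CDS reads on subunit mRNAs (y axis) in each library (x axis, by label), stacked by complex. The column of the library labelled heart reaches 5.69% for the 85 subunits, that labelled colon 2.80%, and the other 4 lie between 0.815% and 1.401%, with complex V as the largest part of each.

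Of the 88 members, 84 had a mean of at least 1 RPKM over the 6 libraries and entered the counts. Cox7b2 and Ndufb11b had no reads in any library, Cox5b-ps had reads only in that labelled colon (0.574 RPKM), and Ndufa4l2 did not exceed 1.87 RPKM. In the heart library 78 of the 84 were higher, against 18% of the 13521 mRNAs tested in the same way, and 1 was lower, against 23.3%. The median difference was 2.65 on the log2 scale for members and -0.24 for all mRNAs. At least 4-fold was reached by 63 members, against 7.42% of all mRNAs. Against the library labelled lung alone, the other one whose markers fitted its label, 77 members were higher in heart, against 22.7% of all mRNAs. In the same comparison 2 were lower, against 34.2%. The mRNA was densest in heart for 77 of the 84 (91.7%), against 12.8% of all mRNAs. The library labelled colon, which carried the kidney markers, was next for 58. No share of all mRNAs was computed for that place.

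For the library labelled colon, 31 members were higher, against 21.8% of all mRNAs, and 2 were lower, against 24.5%. For the library labelled brain, which carried the small intestine markers, 4 were higher (background 21.3%) and 33 lower (32.6%). The counts were 3 higher (15.8%) and 24 lower (20.5%) for the library labelled kidney, and 6 higher (30.6%) and 39 lower (26.5%) for that labelled lung. For the library labelled small intestine, which carried the brain markers, 3 were higher (26.3%) and 33 lower (24.9%). The shares of lower members, 39.3% in brain, 28.6% in kidney, 46.4% in lung and 39.3% in small intestine, lay above these backgrounds, by less in brain and kidney than in lung and small intestine. Since every mean of the other 5 in these 4 comparisons holds the heart library, a median of the other 5 was also used, and the lower members were then 23 (background 26.1%), 20 (17.6%), 28 (19.8%) and 25 (22.6%). The 23 of 84 in brain are near that background.

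**Figure D2:**
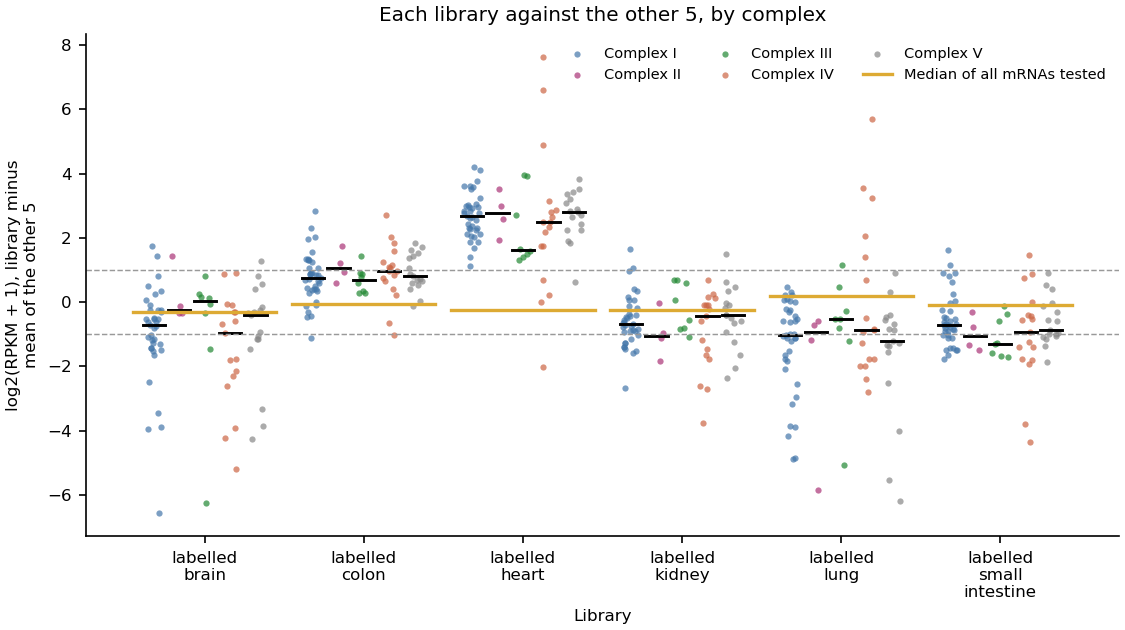
Difference of log2(RPKM + 1) between each library and the mean of the other 5 (y axis) for the 83 subunits tested, with 1 point per mRNA, coloured by complex and jittered sideways. Black bars are the medians of complexes, yellow bars the median of all 13521 mRNAs, and dashed lines mark 2-fold. In the library labelled heart the medians of all 5 complexes lie between 1.63 and 2.81, and the points furthest above are Cox8b, Cox6a2 and Cox7a1.

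Complex I, the NADH dehydrogenase, is the largest group, and each of its 37 mRNAs was higher in the heart library. The median was 331 RPKM in heart, 106.7 in colon, 61.1 in lung, 54.0 in small intestine, 53.0 in kidney and 44.6 in brain. Ndufb7, an accessory subunit on the outer side of the membrane, had the highest mean, with 4924 RPKM in heart, 1397 in colon, 749.7 in brain, 637 in small intestine, 413 in kidney and 295 in lung. Ndufb6, an accessory subunit of the membrane arm, had the lowest mean, with 59.2 RPKM in heart, 46.2 in colon, 17.0 in small intestine, 8.59 in kidney, 0.245 in brain from 1 read and none in lung. Heart and colon took the first places in both.

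Among the core subunits of complex I are those that carry the flavin and the iron-sulfur clusters through which electrons pass. Ndufv1, which binds NADH, had 326 RPKM in heart, 100.3 in colon, 27.8 in brain, 25.0 in small intestine, 15.5 in kidney and 11.4 in lung. Ndufv2, its partner in the NADH module, had 746 RPKM in heart and between 37.4 and 148 elsewhere. Ndufs1, the largest core subunit, had 145 RPKM in heart, 71.8 in colon and between 16.4 and 39.1 elsewhere. Ndufs7, which carries the last cluster, had 207 RPKM in heart and between 14.9 and 47.2 elsewhere. The other 2 cluster and scaffold subunits had gaps. Ndufs8 had 67.8 RPKM in heart, 62.5 in colon, 25.7 in brain, 16.04 in small intestine and 10.4 in kidney, and was not listed for the library labelled lung. Ndufs3 had 86.7 RPKM in heart, 22.5 in colon, 19.1 in kidney and 17.2 in small intestine, but 0.984 in lung and 0.119 in brain, from 6 reads and 1 read. Ndufa6, which binds the acyl carrier protein, was one of the few members densest in the library labelled colon, with 2037 RPKM against 1475 in heart.

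Complex II, succinate dehydrogenase, has 4 subunits, all nuclear, and all 4 were higher in the heart library. Sdha, the flavoprotein, had 1198 RPKM in heart, 801 in colon, 365 in brain, 280.1 in lung, 208 in kidney and 183 in small intestine. Sdhb, the iron-sulfur subunit, had 515 RPKM in heart, 196 in colon and between 47.5 and 93.9 elsewhere. Of the membrane anchors, Sdhd had 198 RPKM in heart and between 8.02 and 35.8 elsewhere. Sdhc had 329 RPKM in heart, 161 in colon, 135 in brain, 57.0 in kidney and 48.8 in small intestine, but 1.02 in lung. The fall from Sdha to Sdhb was 2.33-fold in heart and between 3.21-fold and 4.08-fold in the other 5, although the enzyme holds the subunits in equal numbers.

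Complex III passes electrons to cytochrome c. Its 8 mRNAs were all higher in the heart library, with a smaller median difference (1.63 on the log2 scale) than those of the other complexes (2.50 to 2.81). Its densities were dominated by the hinge protein Uqcrh, with 8652 RPKM in heart, 5759.9 in colon, 3945 in brain, 3136 in lung, 2246 in kidney and 1774 in small intestine, and by Uqcrb. The 3 densest mRNAs held 87.0% of the summed RPKM of the complex in heart and 90.4% to 94.7% elsewhere. Uqcrc1, a core protein, had 1079 RPKM in heart and between 104 and 263 elsewhere. Its partner Uqcrc2 had 208 RPKM in heart and between 40.5 and 139.8 elsewhere. Uqcrfs1, the Rieske iron-sulfur protein on which catalysis depends, had the lowest mean, with 215 RPKM in heart, 48.9 in colon, 33.6 in brain, 14.9 in kidney, 14.5 in small intestine and 0.157 in lung from 1 read.

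Complex V makes ATP. Of its 17 subunits 16 were higher in the heart library, and Atp5mj, a small membrane subunit, had 373 RPKM there against 358 in brain, 345 in kidney, 245 in colon, 207 in lung and 134 in small intestine. The catalytic beta subunit Atp5f1b had the highest mean, with 6203 RPKM in heart, 4584 in colon, 2721 in brain, 1038 in lung, 577 in small intestine and 516 in kidney. The alpha subunit Atp5f1a had 4219.8 RPKM in heart, 1076 in colon, 463 in brain, 354 in small intestine, 236 in lung and 225 in kidney. The central stalk subunit gamma, Atp5f1c, had 1394 RPKM in heart, 782 in colon, 293 in brain and between 162 and 180.1 in the other 3. The enzyme holds 3 alpha and 3 beta subunits. The ratio of beta to alpha was 1.47 in heart, 1.63 in small intestine, 2.29 in kidney, 4.26 in colon, 4.40 in lung and 5.88 in brain, so alpha and beta were closest in heart.

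Subunit c, of which the rotor holds 8, comes from 3 genes. The summed RPKM of Atp5mc1, Atp5mc2 and Atp5mc3, divided by 8, was 0.0497 to 0.142 of the density of Atp5f1c. Atp5mc3 supplied 75.6% to 81.3% of the sum in all 6 libraries. Its density was 1269 RPKM in heart, 351 in colon, 177 in brain, 152 in small intestine, 149.01 in kidney and 48.6 in lung. Atp5mc1 supplied 15.2% to 20.4% in 5 libraries and 0.493% (interval 0.0125 to 2.72) in that labelled lung, where it had 1 read. Atp5mc2 held 23.9% (interval 18.4 to 30.1) in lung and between 0.197% and 6.33% elsewhere. All windows of 29 nt of Atp5mc1 and Atp5mc2 (100%) recur elsewhere in the genome against 0% of those of Atp5mc3. The methods describe alignment to 1 mRNA per gene, with multi-mapped reads left out, and the part of these copies in the shares was not tested.

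Atp5if1, which blocks ATP hydrolysis by the enzyme, was not higher in heart. It had 928 RPKM in colon, 886 in brain, 474 in lung, 462 in kidney, 333 in small intestine and 289 in heart, where its difference from the other 5 was -0.98 on the log2 scale. Relative to Atp5f1c it stood at 3.03 in brain, 2.93 in lung, 2.78 in kidney, 1.85 in small intestine, 1.19 in colon and 0.207 in heart. The heart library was lowest in the inhibitor by level and by ratio.

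**Figure D3:**
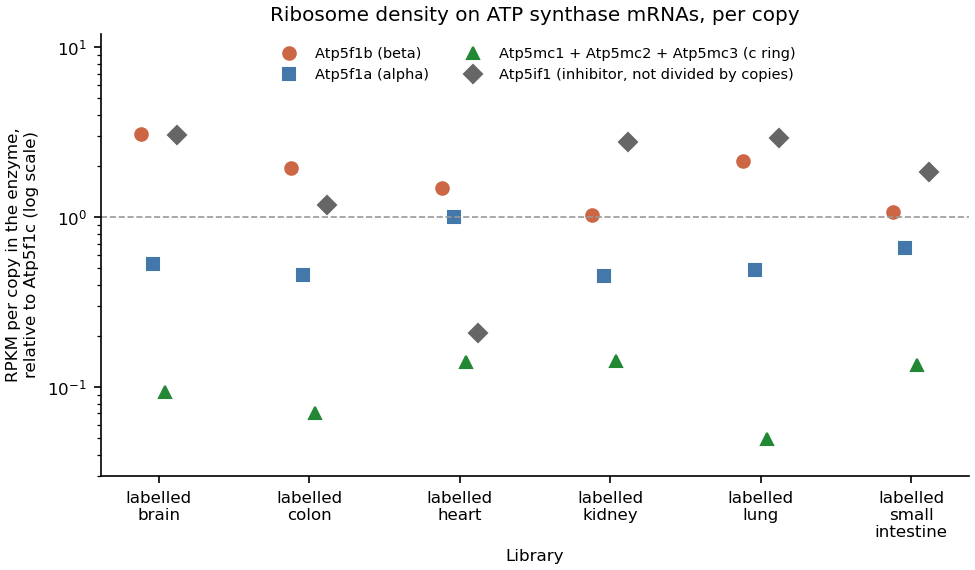
RPKM of ATP synthase mRNAs divided by the copies of the subunit in the enzyme and by the RPKM of Atp5f1c (y axis, log scale, 1 marked by a dashed line) in each library (x axis). Alpha and beta are nearest to each other in the library labelled heart, at 1.01 and 1.48, the c ring lies between 0.0497 and 0.142, and the inhibitor Atp5if1 is lowest in heart at 0.207.

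Complex IV, cytochrome c oxidase, held 4 of the 6 members tested that were not higher in the heart library, the others being Atp5mj and Atp5if1. Of the 17 tested, 13 were higher in the heart library, 1 (Cox8a) was lower and 3 (Cox4i2, Cox6a1 and Cox6b2) were neither. Cox4i1, the largest nuclear subunit, had the highest mean, with 11850 RPKM in heart, 4917 in colon, 2037 in small intestine, 2001 in brain, 1983 in kidney and 1008 in lung. Cox5a and Cox5b, which sit on the matrix side, had 577 and 144 RPKM in heart. They had 93.5 to 342 and 12.7 to 35.6 RPKM elsewhere, with the uncertainty of Cox5b given above. Cox7b had 3366 RPKM in heart and between 282 and 1386 elsewhere, and its paralog Cox7b2 had no reads. Cox8c, known from testis, was not listed in any library.

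Cox8b had the largest difference of any member in heart, 7.64 on the log2 scale. Cox8b had 1649.8 RPKM in heart (interval 1589.6 to 1712), 129 in lung and 57.1 in colon, 1.26 in kidney and 1.25 in small intestine from 2 reads each, and was not listed for brain, where 3 reads would give 1.34. Cox8a had 7777 RPKM in colon, 2535 in small intestine, 1427 in kidney, 1369 in brain, 949.9 in lung and 508 in heart, and was the 1 member lower in heart, by -2.01 on the log2 scale. Cox8b therefore made up 76.4% of the pair in heart (interval 75.04 to 77.8), 11.9% in lung and at most 0.729% in the other 4. The pair summed to 2158 RPKM in heart, below 7834 in colon and 2537 in small intestine, so the sum did not follow the order of the other subunits.

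Cox6a2 had 1202 RPKM in heart, 86.7 in lung, 28.99 in colon, 7.64 in small intestine, 4.53 in kidney and 1.29 in brain from 4 reads. Cox6a1, its widely used partner, had 277 RPKM in colon, 199 in small intestine, 128 in kidney, 96.1 in heart, 63.3 in lung and 7.91 in brain. The muscle version held 92.6% of the pair in heart (interval 91.7 to 93.4), 57.8% in lung (52.5 to 62.9), 14.1% in brain (4.00 to 31.8, from 32 reads on the pair) and 3.43% to 9.46% in the other 3. Unlike the Cox8 pair, the Cox6a pair was densest in heart when summed, at 1298 RPKM against 306 in colon.

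Subunit 7a was divided evenly in heart. Cox7a1 had 309 RPKM and Cox7a2 335 RPKM there, which put Cox7a1 at 48.0% of both (interval 45.4 to 50.7). Cox7a1 was next densest in brain, at 30.3 RPKM, and in lung, at 26.6, followed by 11.6 in colon, 6.91 in kidney and 0.490 in small intestine. The share of Cox7a1 was 55.2% in brain (46.9 to 63.4) and 51.7% in lung (41.6 to 61.7), so the intervals of these libraries overlapped that of heart. It was 9.96% in colon, 7.68% in kidney and 0.686% in small intestine. Here the level of Cox7a1 in heart stood out and its share did not. Cox7a2l, a relative of both that takes part in assembling supercomplexes, had 15.2 RPKM in heart, between 6.07 and 9.33 in lung, small intestine and colon, and no reads in brain and kidney.

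**Figure D4:**
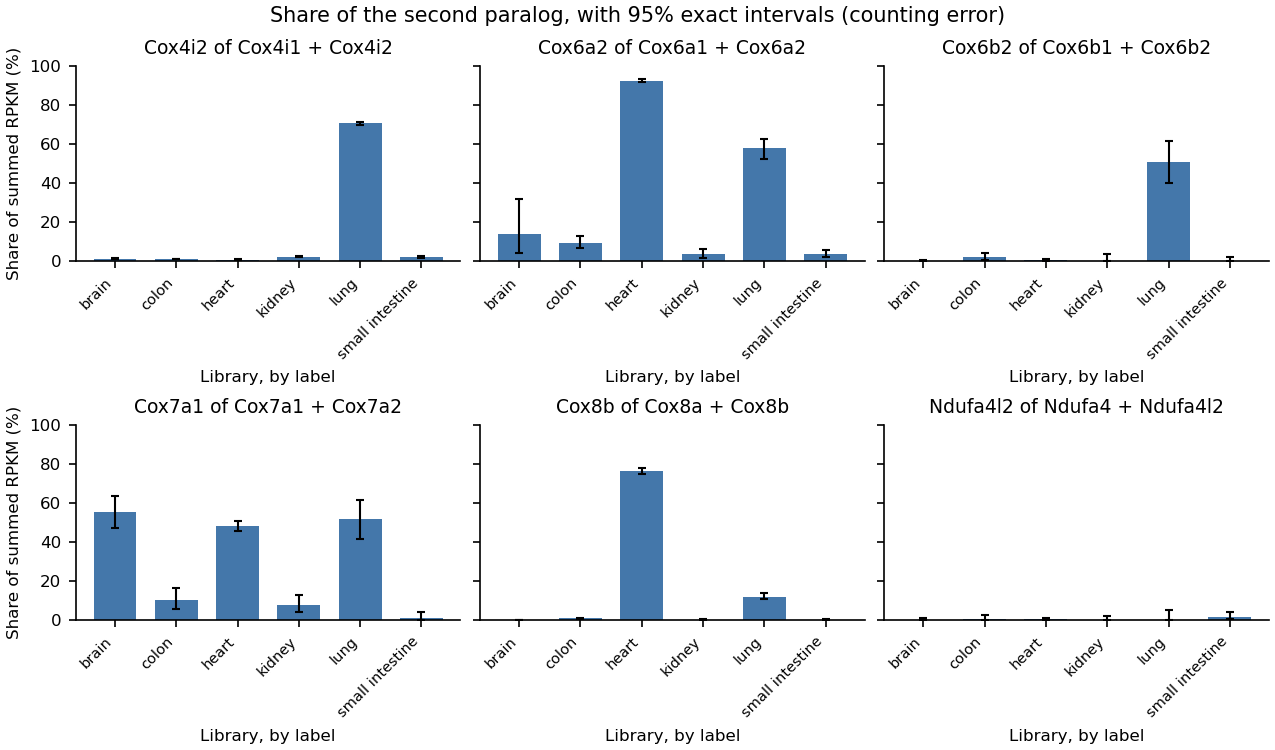
Share of 1 paralog in the summed RPKM of its pair (y axis, percent) in each library (x axis, by label), with exact 95% intervals that cover counting error. Cox6a2 and Cox8b are highest in the library labelled heart, at 92.6% and 76.4%, Cox4i2 and Cox6b2 in that labelled lung, at 70.7% and 50.8%, and Cox7a1 lies near 50% in those labelled brain, heart and lung.

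A different pair of isoforms marked the library labelled lung. Cox4i2, known as the version of subunit 4 used in lung, had 2427 RPKM there (interval 2379 to 2476), 89.8 in heart, 49.5 in colon, 44.98 in kidney, 43.4 in small intestine and 23.1 in brain. It exceeded Cox4i1 in lung and formed 70.7% of the pair (69.9 to 71.4), against 0.752% in heart and at most 2.22% elsewhere. Cox6b2, known from testis, was rare, with 20.7 RPKM in lung, 4.27 in colon, 3.13 in heart and no reads in the other 3. Its share of the Cox6b pair was 50.8% in lung (40.1 to 61.7, from 90 reads on the pair), since Cox6b1 was at 20.1 RPKM there against 556 in heart. Ndufa4l2 held at most 1.47% of its pair with Ndufa4 in any library.

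Markers of heart muscle are given here beside the muscle isoforms. Over Myh6, Tnni3, Actc1 and Tnnt2, all 4 had reads in every library, and their sum was 54367 RPKM in heart, 435 in lung, 366 in colon, 65.8 in kidney, 41.3 in small intestine and 12.9 in brain. In lung Myh6 was at 1.17% of its heart density, Tnnt2 at 0.927%, Tnni3 at 0.644%, Actc1 at 0.314% and Nppa, the remaining heart marker, at 6.26%, while Cox8b was at 7.80%, Cox6a2 at 7.21% and Cox7a1 at 8.61%. Brown fat is known to use Cox7a1 and Cox8b as well. Its marker Ucp1 had 34.3 RPKM in lung, 15.4 in heart and 4.58 in colon and no reads elsewhere, and Cidea had 7.70 RPKM in heart and 0.804 in small intestine and no reads in lung. Of the 4 skeletal muscle markers, Ckm had 16.6 RPKM in lung, Tnnt3 4.28, Myh4 1.36 and Acta1 0.114 from 1 read. Myh4 and Tnnt3 were densest in lung, and Acta1 and Ckm in heart. The 4 markers summed to 2302 RPKM in heart, nearly all from Ckm, which heart muscle also uses. The part of any of these in the isoform values was not tested. The share of Cox7a1 in brain, 55.2%, stood beside the lowest summed density of the heart markers and beside 32.5 RPKM of the skeletal muscle markers, of which 26.2 RPKM was Acta1.

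**Figure D5:**
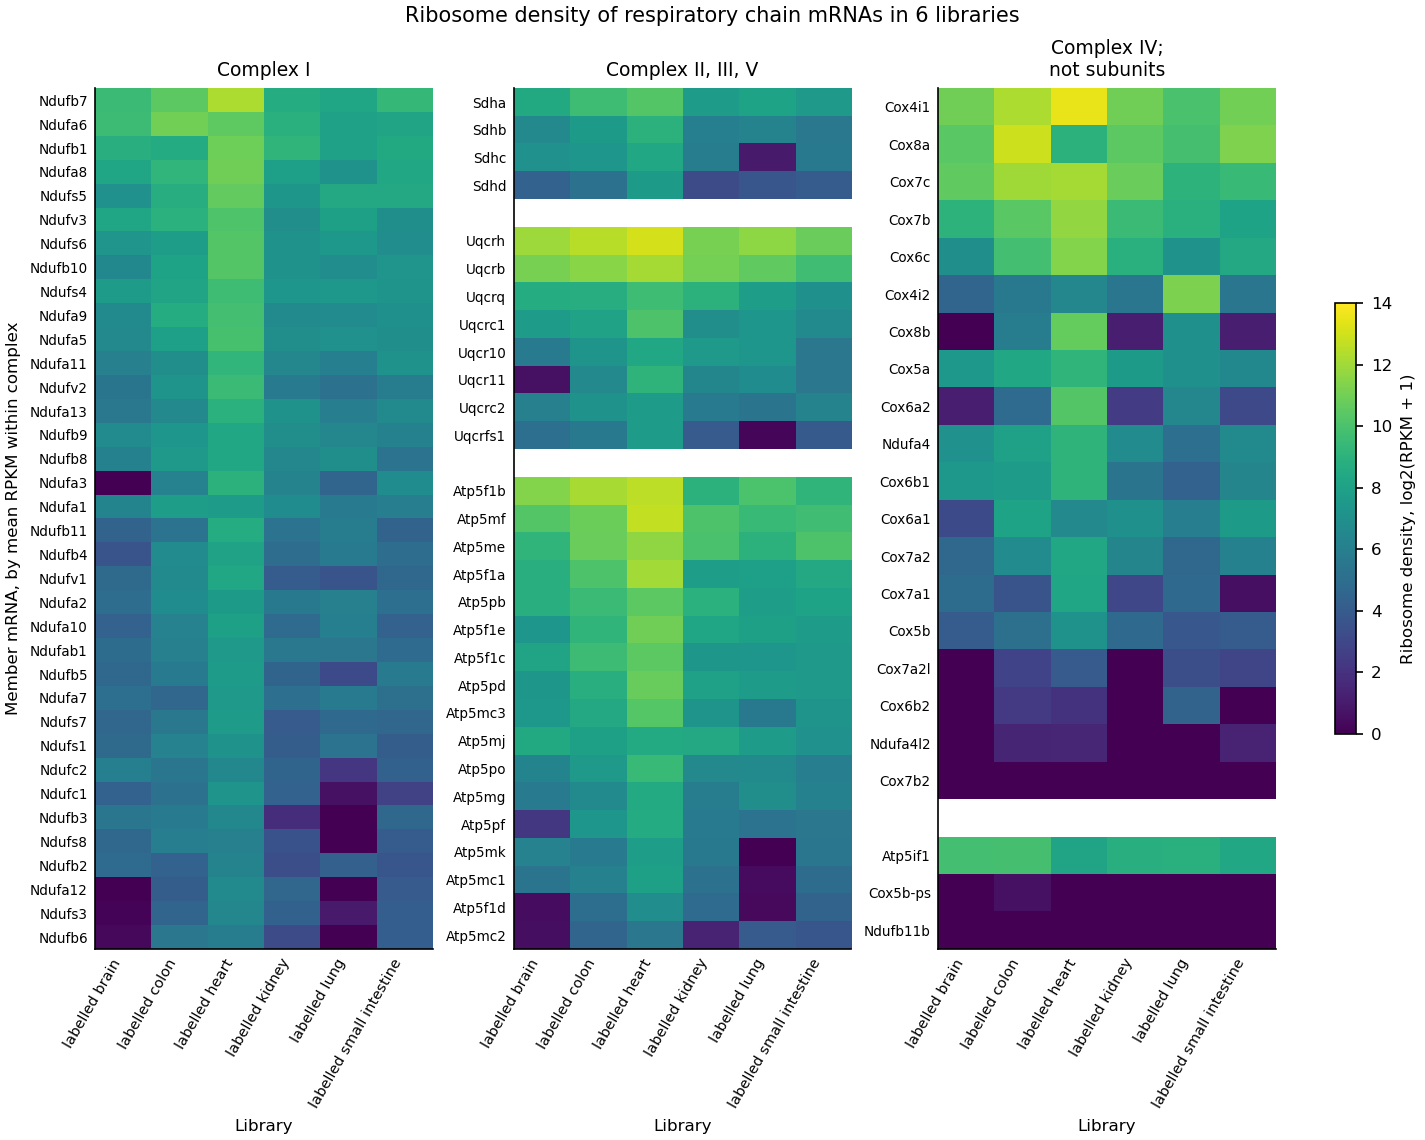
Ribosome density as log2(RPKM + 1) (colour) of the members reported here (rows, ordered by mean RPKM within each complex) in the 6 libraries (columns, by label). The column of the library labelled heart is the brightest in most rows. Among the members tested, Ndufa1, Ndufa6, Cox6a1, Cox8a and Atp5if1, densest in colon, and Cox4i2 and Cox6b2, densest in lung, break the pattern. The darkest cells mark members under 1 RPKM.

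Some members were nearly without reads in a library. Under 1 RPKM were 10 of the 84 members in brain, 10 in lung, 2 in kidney, 2 in small intestine and none in colon or heart. For these counts no share over all mRNAs is given. Among mRNAs with a geometric mean of at least 20 RPKM in the other 5 libraries, 3 of 72 members (4.17%) were under 1 RPKM in brain, against 3.40% of all such mRNAs. In lung they were 6 of 74 (8.11%), against 3.60%. The 3 of 72 in brain are near the share of all such mRNAs. Those in brain were Ndufa3, Uqcr11 and Cox8b. Ndufa3, a small accessory subunit of complex I, was not listed for brain and had between 22.4 and 503 RPKM elsewhere. Uqcr11, a small subunit of complex III, had 0.560 RPKM in brain from 1 read and between 45.9 and 557 elsewhere. In lung the 6 were Atp5mc1, Ndufb3, Ndufc1, Uqcrfs1, Ndufs8 and Atp5mk. Atp5mk, a small subunit of the ATP synthase membrane part, was not listed for lung and had between 44.4 and 226 RPKM elsewhere. Ndufa12, an accessory subunit of complex I with a lower mean, was listed in neither brain nor lung and had 99.2 RPKM in heart, 23.6 in kidney, 16.4 in colon and 14.9 in small intestine. These libraries had the fewest mRNAs with reads, and the part of that in these values was not tested.

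Furthest above the other 5 in brain were Ndufb3, Sdhc and Ndufc2, by 1.75, 1.45 and 1.43 on the log2 scale. Ndufb6, Cox8a and Ndufs8 led in colon, by 2.83, 2.71 and 2.30. In kidney the leaders were Ndufa12, Atp5f1d and Ndufs3, by 1.67, 1.495 and 1.06. Ndufa3, Cox6a1 and Ndufb6 led in small intestine, by 1.63, 1.46 and 1.16. Several of these, among them Ndufb3, Sdhc, Ndufb6, Ndufs8, Ndufa12, Atp5f1d, Ndufs3 and Ndufa3, were below or near 1 RPKM in brain or lung, which lowers the mean they are set against. Furthest below were Ndufa3 (-6.57) and Uqcr11 (-6.26) in brain, and Cox7a1 (-4.36) and Cox8b (-3.78) in small intestine. In kidney they were Cox8b (-3.77) and Cox6a2 (-2.71), and in colon Ndufa7 (-1.11) and Cox4i2 (-1.01).

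The order of members by density was much the same under all labels. Spearman's rho between the densities of 84 members in 2 libraries ranged from 0.750 to 0.948 over the 15 pairs, against 0.373 to 0.752 for all 13521 mRNAs, as a description across mRNAs that share a library and a CDS length. The highest values were between the libraries labelled kidney and small intestine and the lowest between brain and lung. Within complexes the densities spread widely. In heart the 3 densest mRNAs held 35.2% of the summed RPKM of complex I, 55.9% of complex V, 69.3% of complex IV and 87.0% of complex III.

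The remaining genes of oxidative metabolism were taken from lists. In heart 18% of all mRNAs tested were higher and 23.3% lower, the shares against which the counts below stand. Of 17 genes of the tricarboxylic acid cycle and pyruvate dehydrogenase, all 17 were higher in heart, with a median difference of 2.58 on the log2 scale, close to that of the members. Idh2, the mitochondrial NADP isocitrate dehydrogenase, had the highest mean, with 2222 RPKM in heart, 633 in colon and between 32.2 and 183 elsewhere. Of 43 listed assembly factors, which build the complexes without staying in them, 40 were tested and 24 were higher and 1 lower in heart, with a median of 1.503. Their reads were few, at 0.109% of all reads in heart. Pet100, a factor for complex IV and the densest of the list by mean, had 281 RPKM in kidney, 188 in colon, 168 in heart, 124 in lung, 114 in small intestine and 56.5 in brain, and was not higher in heart.

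Among carriers of electrons and their points of entry, 8 of the 9 tested were higher in heart, against 18% of all mRNAs. The other, Gpd2 of the glycerol phosphate shuttle, was lower there (23.3% of all mRNAs), with 15.8 RPKM against 88.5 in brain. Etfa and Etfb, which take electrons from fatty acid oxidation, had 2077 and 2256 RPKM in heart. Cyc1, the cytochrome c1 of complex III that the symbol rule leaves out, had 108 RPKM in heart and between 12.6 and 25.3 elsewhere. Cycs, cytochrome c, which all respiring cells use, was listed at 0 in the libraries, so its 0 is no level. Of the 10 mitochondrially encoded subunit mRNAs listed, 9 were higher in heart, against 18% of all mRNAs, with a median of 1.68. All 10 were lower in lung, against 26.5% of all mRNAs, with a median of -1.89. The other 3 were not analysed here. The 10 summed to 64783 RPKM in heart, 44737 in kidney, 32957 in colon, 25049 in brain, 24107 in small intestine and 11569 in lung. By this sum kidney stood above colon and brain, unlike for the nuclear members. The median difference, in contrast, was higher in colon (0.695) than in kidney (0.385). mt-Atp6, a membrane subunit of ATP synthase, held the largest part of the sum, with 36338 RPKM in heart, 30460.4 in kidney, 18714 in brain, 16312 in colon, 14382 in small intestine and 8268 in lung.

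The densest ADP/ATP carrier also differed between libraries. Slc25a4, the heart and muscle carrier, had 2646 RPKM in heart, 167 in small intestine, 124 in colon, 60.9 in lung, 43.2 in brain and 24.3 in kidney. Slc25a5, the widely used one, had 835 RPKM in brain, 565 in colon, 425 in kidney, 269.97 in heart, 173 in lung and 125 in small intestine. Of the 10 regulators of mitochondrial genes, 6 were higher in heart, against 18% of all mRNAs, with a median of 1.23. Yy1, a general transcription factor and the densest of them by mean, had 65.6 RPKM in lung, 63.1 in colon, 53.5 in brain, 33.3 in small intestine, 25.6 in heart and 20.6 in kidney. Ppargc1a, a coactivator of these genes, had 22.0 RPKM in colon, 15.7 in heart, 5.27 in brain, 3.67 in small intestine, 1.82 in kidney and 0.0541 in lung. It was thus highest in the libraries with the highest and next highest density of members, in the reverse order. Ppargc1b, on the same list, had 20.8 RPKM in kidney, 18.9 in heart and 4.38 in colon, where it was lowest. A link between regulators and members was not tested.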

How the data were processed

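The labels describe 6 Ribo-seq libraries, 1 per tissue. The authors deposited RPKM values per mRNA, with identifiers and the position of the CDS in each row name. Their methods, written for macrophage libraries and taken to hold here, name Cutadapt, STAR alignment to the mRNA with the longest CDS per gene (GRCm39, Ensembl release 107), and the removal of reads under 15 nt, of multi-mapped reads and of reads with more than 2 mismatches. Leaving out multi-mapped reads can lower an mRNA whose sequence recurs. RPKM times CDS length gave whole reads for 100% of values (tolerance 0.001), 4504853 to 10635031 per library.

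Symbols came from GENCODE release M39 for 18424 of 18437 mRNAs. mRNAs not listed for a library were taken as 0 reads there. Differences were of log2(RPKM + 1) from the mean of the other 5 libraries, over 13521 mRNAs with a mean of at least 1 RPKM, called at 2-fold. Intervals are Wilson for shares of reads, exact Poisson for RPKM and Clopper-Pearson for paralog shares. No count model was run, since each group has 1 library. The paralog sets, core subunits, extremes per complex and library, members without reads and other gene lists were named by rule. The values of 1 member are not reported here. The members and lists were chosen with earlier results of these data known. Steps were tested on simulated data. A search for 3 motifs in RefSeq promoters was void and left out, since 69 of 88 members (78.4%, under the 80% needed) had an entry. Alternatives covered pseudocount, fold, filter, scaling, depth, reference and libraries. Python 3.11.15, numpy 2.4.6, scipy 1.17.1, pandas 2.3.3, matplotlib 3.10.9 and biopython 1.88 were used.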

Additional observations from a re-analysis of the deposited data

How the results depend on the processing

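No paired analysis was possible because each label has 1 library. Shares of all mRNAs at the same setting stand in parentheses below. The 78 members higher in the library labelled heart stayed between 63 and 80 of 84 under 8 alternatives with the same members. Over these 8 the share of all mRNAs lay between 7.42%, at a fold of 4, and 26.9%, at a pseudocount of 0.1. Members higher in heart were 78 of 88 without the filter (14.4%) and 78 without the libraries labelled brain and lung (17.8%). They were 60 of 66 without members whose windows recur in the genome (17.9%). The last 2 settings were chosen after seeing the data. Members lower in heart went from 1 to 2 at a fold of 1.5 (38.4%), on thinning to the lowest total (23.5%), against lung only (34.2%), and with Kri1 and mitochondrially encoded mRNAs left out of the total (25.4%). Over all libraries 81 of 112 alternative counts lay within 1.5 times the reported one. A pseudocount of 0.1 raised higher members to 7 in brain (26.1%), 5 in kidney (25.8%) and 9 in small intestine (33.9%). At a fold of 1.5, higher members were 10 in brain (30.2%), 57 in colon (31.8%), 9 in kidney (24.01%) and 10 in small intestine (34.0%), and lower members 42 in kidney (37.4%) and 50 in small intestine (36.2%). At a fold of 4, higher members were 0 in brain (9.43%), 5 in colon (8.40%), 0 in kidney (5.89%) and 0 in small intestine (15.3%), and lower members 15 in brain (12.5%), 0 in colon (7.18%), 6 in kidney (3.32%), 18 in lung (10.3%) and 2 in small intestine (9.16%). With Kri1 and the mitochondrially encoded mRNAs left out, higher members were 5 in kidney (21.3%) and 7 in small intestine (28.4%). Median-of-ratios scaling gave 9 higher in small intestine (30.4%), and thinning gave 5 higher there (26.5%) and 1 lower in colon (24.4%). Under median-of-ratios scaling, lower members were 34 in brain (33.9%), 18 in kidney (16.8%), 58 in lung (32.0%) and 22 in small intestine (21.4%). Against the median of the other 5, there were 0 higher in kidney (19.3%) and 1 lower in colon (19.2%). Without members whose windows recur in the genome, 2 were higher in brain (21.3%) and 1 in kidney (15.8%).

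The same rescaling moved the median of all mRNAs by up to 0.26 on the log2 scale, in kidney, and median-of-ratios scaling by up to -0.47, in lung, where the median of members then stood at -1.43. Leaving Kri1 and the mitochondrially encoded mRNAs out of the total put members at 1.49% of reads in brain, 3.12% in colon, 6.09% in heart, 1.21% in kidney, 0.984% in lung and 0.984% in small intestine, which reversed the places of kidney and lung. The ratios of summed RPKM in heart to the other libraries became 4.09 for brain, 1.83 for colon, 3.74 for kidney, 5.60 for lung and 5.04 for small intestine. With the full total kept, the ratios of medians over members were 6.97, 3.08, 5.59, 6.15 and 7.03 in the same order. Counted in reads without length, Cox6a2 held 91.6% of its pair in heart. The causes of these shifts were not tested. Depth limits the members with few reads, since 3 reads on a CDS of 300 nt correspond to between 0.940 and 2.22 RPKM.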

Other observations

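Sequences that recur elsewhere in the genome, as processed copies do, were looked for in the CDS of every member, in windows of 29 nt. Of the 84 members tested, 26 had no window elsewhere and 18 had at least 50% of their windows elsewhere. The median of mean RPKM was 79.4 for those 18, 181 for 43 members under 10% and 195 for the 23 between. Spearman's rho between the percent of windows elsewhere and mean RPKM was 0.012 over these 84 members, which share the 6 libraries.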
